A study of Mus musculus with 15 samples.

Results

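The nuclear genes of the oxidative phosphorylation complexes were taken from the expression data by symbol, as the *Ndufa*, *Ndufb*, *Ndufc*, *Ndufs* and *Ndufv* series, *Sdha* to *Sdhd*, the *Uqcr* genes, the *Cox4* to *Cox8* genes without *Cox6a2*, and the *Atp5* genes. This rule found 82 of the 21110 genes listed, with 37 in complex I, 4 in complex II, 6 in complex III, 18 in complex IV and 17 in complex V. Of these, 77 encode subunits of a complex and 5 share only the name: *Ndufa4l2*, a paralogue of *Ndufa4*; *Cox7a2l*, a factor for respiratory supercomplexes; *Cox4nb*, a protein of the endoplasmic reticulum; *Atp5s*, coupling factor B; and *Atp5sl*, an assembly factor of complex I. *Ndufa4* was counted with complex I by its name, although its protein is now placed in complex IV. The study asked how loss of *Socs3*, a feedback inhibitor of cytokine signaling, in keratinocytes changes gene expression, and sequenced RNA from the ear of wild type and knockout mice aged 2 or 10 weeks. Wild type mice were C57BL/6, and the *Socs3* conditional knockout (*Socs3* cKO) mice, in the same background, carried a keratin 5-specific deletion, so the deletion was directed to basal keratinocytes and not to the other cells of the ear. Each library came from 1 mouse, and each of the 4 groups, 1 for each genotype at each age, held 4 mice, except for the wild type group of 10 weeks, which held 3. Sample sources were labelled both as keratinocytes and as ear, and the RNA was extracted from ear specimens.

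Complex I takes electrons from NADH and complex II takes them from succinate. Complex III passes them to cytochrome c, complex IV passes them to oxygen, and complex V makes ATP from the proton gradient that complexes I, III and IV build. Complex II is encoded wholly in the nucleus, the other complexes also hold subunits of the mitochondrial genome, and skeletal muscle and brown fat use their own isoforms of some complex IV subunits.

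*Socs3* itself was listed at 9.71, 10.3, 10.3 and 10.3 FPKM (fragments per kilobase of transcript, scaled to the mapped reads of the library) in wild type and at 1.25, 9.32, 12.6 and 3.51 in *Socs3* cKO at 2 weeks, with overlap between the groups and a log2(FC) of -1.06 (SE 0.63, limma adjusted p = 0.179). At 10 weeks it was 2.76, 4.81 and 2.02 in wild type and 36.6, 29.8, 47.7 and 32.4 in libraries labelled *Socs3* cKO, a log2(FC) of 3.54 (SE 0.29, limma adjusted p = 7.2e-05). The targeted gene was thus higher in every library labelled *Socs3* cKO at 10 weeks, the opposite of what a deletion in all cells would give. The value covers the whole gene and all cells of the ear, and the deleted stretch is not given in the sources used here, so it does not check the labels, and genotypes are given below as labelled. All 5 keratinocyte markers were present in every group, as were markers of muscle, fat, fibroblasts, endothelium and immune cells, with *Matn1*, a cartilage marker, listed at 0 in all mice of 2 weeks. In whole tissue, fewer cells of a type and less RNA per cell cannot be told apart. Library numbers in the labels ran in a separate range for each group, so any batch of preparation cannot be told apart from the group.

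At 2 weeks the 82 genes took 1.96% to 2.04% of the summed FPKM in wild type, against 2.33% to 3.29% in *Socs3* cKO. The shares of the older mice were 3.03% to 3.79% in wild type and 2.22% to 2.71% in libraries labelled *Socs3* cKO. At 2 weeks the lowest *Socs3* cKO library was above the highest wild type library, and at 10 weeks the order was the opposite. In wild type at 2 weeks the highest level was that of *Atp5b*, the catalytic subunit of complex V, at 407 to 438 FPKM, and the lowest among subunits that passed the filter was *Cox4i2*, at 8.31 to 9.10. The testis isoforms *Cox7b2* and *Cox8c* did not pass the filter of 1 FPKM in 3 libraries: *Cox7b2* was above 0 in 2 wild type libraries of 10 weeks, at 0.358 and 0.835 FPKM, and *Cox8c* in 1, at 0.678. Those wild type libraries of 10 weeks listed fewer genes at 0 in general, 2087, 3176 and 1414, where all other libraries listed 4044 to 4423. The cause of this was not tested, so values above 0 there do not set the 2 isoforms apart. The other 80 genes were tested in each comparison.

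**Figure D1:**
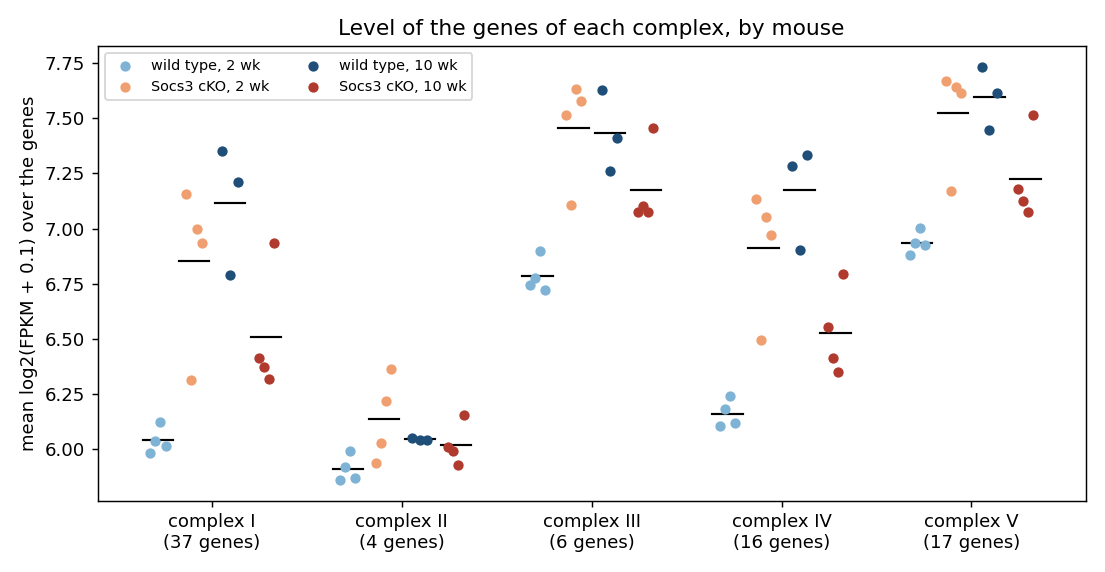
Mean log2(FPKM + 0.1) over the tested genes of each complex (vertical axis, log2 scale), with 1 point per mouse, colours for the 4 groups as labelled and a bar at the group mean. For complexes I, III, IV and V every *Socs3* cKO mouse of 2 weeks lies above every wild type mouse of 2 weeks, whereas for complex II the groups lie close together at both ages.

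At 2 weeks, most genes of oxidative phosphorylation were higher in *Socs3* cKO, with larger median differences in complexes I, III, IV and V than in complex II. That order turned for complex III when trends with transcript length and GC content were removed. Differentially expressed genes (DEGs) were those with a limma adjusted p below 0.01 and |log2(FC)| of at least 1. By that rule 16 of 80 genes (20%) were up-regulated and 0 down-regulated, where 7.24% of all 13524 genes tested were up-regulated and 7.19% down-regulated. At an unadjusted p below 0.05 limma gave 63 higher and 5 lower, and at an adjusted p below 0.05 it gave 58 higher and 3 lower (*Ndufa4l2*, *Cox6b2* and *Atp5sl*), where 21.8% and 26.1% of all genes passed. The median log2(FC) of the 80 genes was 0.85, where the median of all genes tested was -0.21. By complex the median was 0.86 for I, 0.37 for II, 1.03 for III, 0.98 for IV and 0.84 for V. With those trends removed it was 0.68, 0.25, 0.21, 0.32 and 0.57. The number of up-regulated DEGs depended on the library left out: it was 44 without *Socs3* cKO replicate 2, 4 without *Socs3* cKO replicate 3, 5 without *Socs3* cKO replicate 4, and 4, 3, 5 and 3 without wild type replicates 1 to 4. It was 9 with quantile normalization, 7 (and 1 lower) after each library's trend with transcript length and GC content was removed (removal of the length and GC trend), and 29 (and 1 lower) in a fit of all 4 groups.

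At 10 weeks the difference had the opposite sign. In libraries labelled *Socs3* cKO, 7 of 80 genes (8.75%) were down-regulated and 0 up-regulated, where 2.43% of all 13105 genes tested were down-regulated and 12.5% up-regulated. The 7 were *Ndufs7*, *Ndufa5* and *Ndufb7* of complex I, *Cox5a*, *Cox7a1* and *Cox8b* of complex IV, and *Atp5e* of complex V. At an unadjusted p below 0.05 limma gave 45 lower and 3 higher, and at an adjusted p below 0.05 it gave 28 lower and 1 higher, *Uqcrc2*, where 8.96% of all genes were lower and 28.7% higher. The median log2(FC) was -0.56, where the median of all genes was 0.31, and by complex it was -0.62 for I, -0.03 for II, -0.34 for III, -0.61 for IV and -0.49 for V. The count of down-regulated DEGs was 0 without wild type replicate 3, 1 without wild type replicate 1, 18 (and 1 higher) without wild type replicate 2, 2 without *Socs3* cKO replicate 1, 3 without *Socs3* cKO replicate 2 or 3, and 12 without *Socs3* cKO replicate 4. It was 13 with median-of-ratios scaling, 4 with no filter on low values, and 2 after removal of the length and GC trend. Over all genes the split of DEGs was 1638 higher and 319 lower, and it was 1041 and 645 after median-of-ratios scaling, 898 and 739 after quantile normalization, and 770 and 518 of 12640 genes without the length and GC trend.

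Between 2 and 10 weeks, the wild type mice showed the broadest rise. Of 80 genes, 42 (52.5%) were up-regulated DEGs at 10 weeks and 0 were down-regulated, where 6.18% of all 13937 genes were up-regulated and 19.4% down-regulated. Limma gave 59 higher and 4 lower at an unadjusted p below 0.05, and 58 higher and 3 lower at an adjusted p below 0.05, where 13.1% and 37.6% of all genes passed. The 42 comprised 26 of 37 genes of complex I, 0 of 4 of complex II, 2 of 6 of complex III, 8 of 16 of complex IV and 6 of 17 of complex V. The median log2(FC) was 1.01, against -0.44 over all genes. By complex it was 1.18 for I, 0.12 for II, 0.67 for III, 0.99 for IV and 0.80 for V. With the length and GC trend removed, *Sdha*, *Sdhb*, *Sdhc* and *Sdhd* of complex II were at 0.46, 0.34, 0.71 and -0.11. *Sdha* then passed the test (limma adjusted p = 0.00188). The genes of complex III ran from -0.66 (*Uqcrc2*) to 1.596 (*Uqcrq*), so complex II was not set apart from complex III under that setting. *Atp5a1* and *Atp5b*, the alpha and beta subunits that form the catalytic head of complex V, and *Cox6b2* were the 3 genes lower at an adjusted p below 0.05, with a log2(FC) of -0.79, -0.46 and -0.54. Without the length and GC trend *Atp5a1* and *Atp5b* no longer passed (-0.0011 and -0.16, limma adjusted p = 0.996 and 0.262). After median-of-ratios scaling none of the 3 passed, and after quantile normalization *Cox6b2* was at 0.03. The count was 19 without wild type replicate 1 of 10 weeks, 20 without replicate 3 of 10 weeks and 28 without replicate 1 of 2 weeks, and 19 after removal of the length and GC trend. Over all genes the split was 861 higher and 2698 lower, and it was 1552 and 1745 after median-of-ratios scaling, 1622 and 1705 after quantile normalization, and 1147 and 1152 of 13368 genes without the length and GC trend.

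In the mice labelled *Socs3* cKO few of the genes changed with age. Only *Cox7a1* and *Cox8b* were DEGs, both lower at 10 weeks, and 0 of 80 were higher, where 1.53% of all genes were down-regulated and 2.01% up-regulated. Limma gave 20 lower and 2 higher at an unadjusted p below 0.05, and 4 lower and 0 higher at an adjusted p below 0.05, where 4.80% and 5.29% of all genes passed. The median log2(FC) was -0.36, against 0.11 over all genes. No gene was called without *Socs3* cKO replicate 2 or 3 of 10 weeks or without replicate 3 or 4 of 2 weeks, and 1 was called without replicate 4 of 10 weeks.

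The difference between the genotype effects at 10 and 2 weeks was tested as an interaction in a fit of all 4 groups. At an adjusted p below 0.01 it was negative for 52 of 80 genes (65%) and positive for 0, where 7.05% of all genes were negative and 18.5% positive. At an unadjusted p below 0.05 limma gave 63 negative and 3 positive, and at an adjusted p below 0.05 it gave 59 and 1, where 12.5% and 34.6% of all genes passed. The 52 were 30 of 37 genes of complex I, 0 of 4 of complex II, 3 of 6 of complex III, 10 of 16 of complex IV and 9 of 17 of complex V. The median was -1.45 on the log2 scale, against 0.55 over all genes. Without wild type replicate 1 or 3 of 10 weeks 23 and 27 genes passed, and after removal of the length and GC trend 42 were negative and 1, *Ndufa4l2*, positive; 39 of the 52 passed under that setting too. Over all genes the split was 2583 positive and 983 negative, and it was 1805 and 1664 after median-of-ratios scaling, 1888 and 2269 after quantile normalization, and 1356 and 1870 without the length and GC trend. The comparisons share groups, since each wild type group entered the genotype comparison of its age, the age comparison and the interaction.

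**Figure D2:**
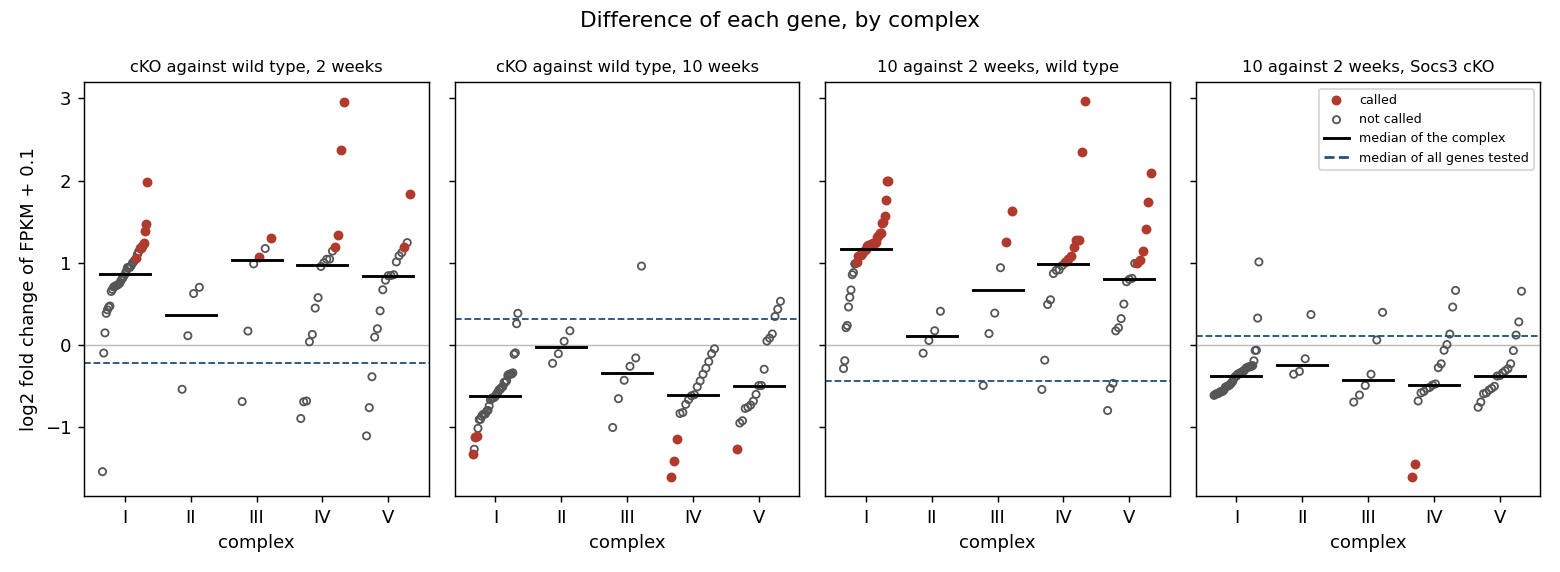
Log2 fold change of FPKM + 0.1 (vertical axis) for each tested gene, by complex, in the 4 comparisons as labelled; filled points are DEGs, black bars are medians of a complex and the dashed line is the median of all genes tested. The medians of all complexes, I to V, lie above the dashed line at 2 weeks and in wild type with age, and below it at 10 weeks. Complex II lies closer to 0 than the others in those 3 comparisons, but on the same side of the dashed line. The values shown still hold the trends with length and GC content. Without those trends complex II was not set apart from complex III at 2 weeks or in wild type with age.

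Without a test, the groups can be compared by overlap. At 2 weeks 52 of 80 genes were higher and 4 lower in every *Socs3* cKO mouse than in any wild type mouse, where 22.9% and 33.2% of all genes were. At 10 weeks 5 were higher and 20 lower in all libraries labelled *Socs3* cKO, where 31.2% and 11.1% of all genes were. With age 65 genes were higher and 4 lower in all wild type mice, where 17.3% and 49.5% of all genes were, and 1 was higher and 4 lower in all mice labelled *Socs3* cKO, where 7.71% and 6.79% were.

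The mean log2(FPKM + 0.1) over the genes of a complex summarises these differences per mouse. At 2 weeks the mean was higher in *Socs3* cKO by 0.81 for complex I, 0.23 for II, 0.67 for III, 0.75 for IV and 0.59 for V, and over all 80 genes by 0.71. At 10 weeks the difference was -0.61, -0.03, -0.25, -0.65 and -0.37, and over all 80 genes -0.51. In wild type with age the 80 genes differed by 0.90 and in the mice labelled *Socs3* cKO by -0.32. At 2 weeks the ranges did not overlap for complexes I, III, IV and V, whereas for complex II wild type held 5.86 to 5.99 and *Socs3* cKO 5.94 to 6.36.

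The level of these genes differed between libraries of a group in the same order for most genes. Of the 80 genes, 55 were highest in *Socs3* cKO replicate 1 and 62 were lowest in replicate 2 of 2 weeks, 61 were lowest in wild type replicate 2 of 10 weeks, and 65 were highest in replicate 4 of the mice labelled *Socs3* cKO at 10 weeks. The transcripts of the tested genes are short, with a median of 891.5 bases, where the median of 13368 genes at 1 FPKM or more in 3 libraries was 2906. By complex the median length was 960 bases for I, 2094 for II, 1442 for III, 684.5 for IV and 955 for V. In each library the deviation of the other 13288 genes from their means over all 15 libraries was compared with transcript length by Spearman's rho, as a description across genes, which are not independent replicates. This rho was 0.22 to 0.35 in wild type at 2 weeks and -0.50 to -0.19 in wild type at 10 weeks. Replicates 1 to 4 of *Socs3* cKO had -0.24, 0.46, -0.25 and -0.08 at the younger age. Those labelled so at the older age had 0.30, 0.32, 0.29 and -0.23. The libraries with the lowest level of oxidative phosphorylation genes in *Socs3* cKO of 2 weeks and in wild type of 10 weeks had the highest rho with length of their groups. Replicate 4 of the mice labelled *Socs3* cKO at 10 weeks, where most genes were highest, had the lowest rho with length.

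**Figure D3:**
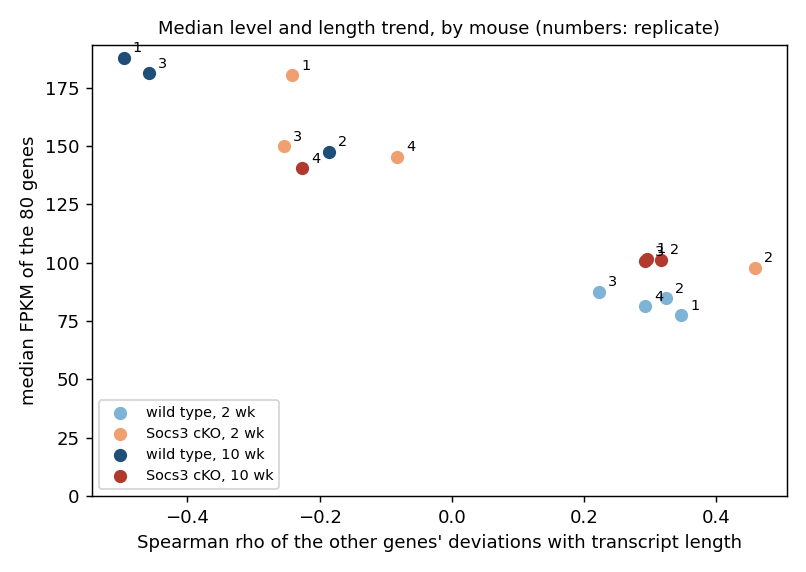
Median FPKM of the 80 tested genes (vertical axis) against Spearman's rho of the deviations of 13288 other genes with transcript length (horizontal axis), with 1 point per mouse, coloured by group as labelled and numbered by replicate. The 7 libraries with a rho below 0 sit at 140.5 to 187.9 FPKM and the 8 with a rho above 0 at 77.5 to 101.8 FPKM.

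Across the 80 genes the log2(FC) went with length in the same way as across other genes. Spearman's rho of log2(FC) with length was -0.33 over the 80 genes and -0.25 over 12957 other genes at 2 weeks, 0.49 and 0.44 (12560 other genes) at 10 weeks, and -0.57 and -0.46 (13288 other genes) for wild type with age. With GC content it was -0.36 and -0.53 at 2 weeks, -0.27 and -0.27 at 10 weeks, and 0.03 and -0.16 for wild type with age. With both trends removed from each library, the median log2(FC) of the 80 genes became 0.49 at 2 weeks, -0.38 at 10 weeks and 0.67 in wild type with age, and the medians of all genes became 0.04, -0.07 and 0.09. The distance of the 80 genes from all genes was then 0.45, -0.31 and 0.57, where it had been 1.06, -0.87 and 1.45 before. Median-of-ratios scaling shifted the median of all genes by 0.19, -0.27 and 0.38 in these comparisons and left distances of 1.06, -0.87 and 1.45, and quantile normalization shifted it by 0.26, -0.34 and 0.48 and left 0.48, -0.56 and 0.80. Of the 16 up-regulated DEGs of 2 weeks, 6 remained DEGs (*Ndufb2*, *Ndufb4*, *Ndufv3*, *Cox7a1*, *Cox8b* and *Atp5c1*), of the 7 down-regulated DEGs of 10 weeks only *Cox8b* remained, and of the 42 of wild type with age 18 remained. At an adjusted p below 0.05, 43 of the 58 genes higher at 2 weeks were higher with the trends removed as well, 10 no longer passed and 5 had a negative log2(FC), of which *Cox7c* and *Atp5s* passed as lower. Of the 28 lower at 10 weeks 24 passed again, of the 58 higher in wild type with age 49, and of the 59 negative interactions 48.

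**Figure D4:**
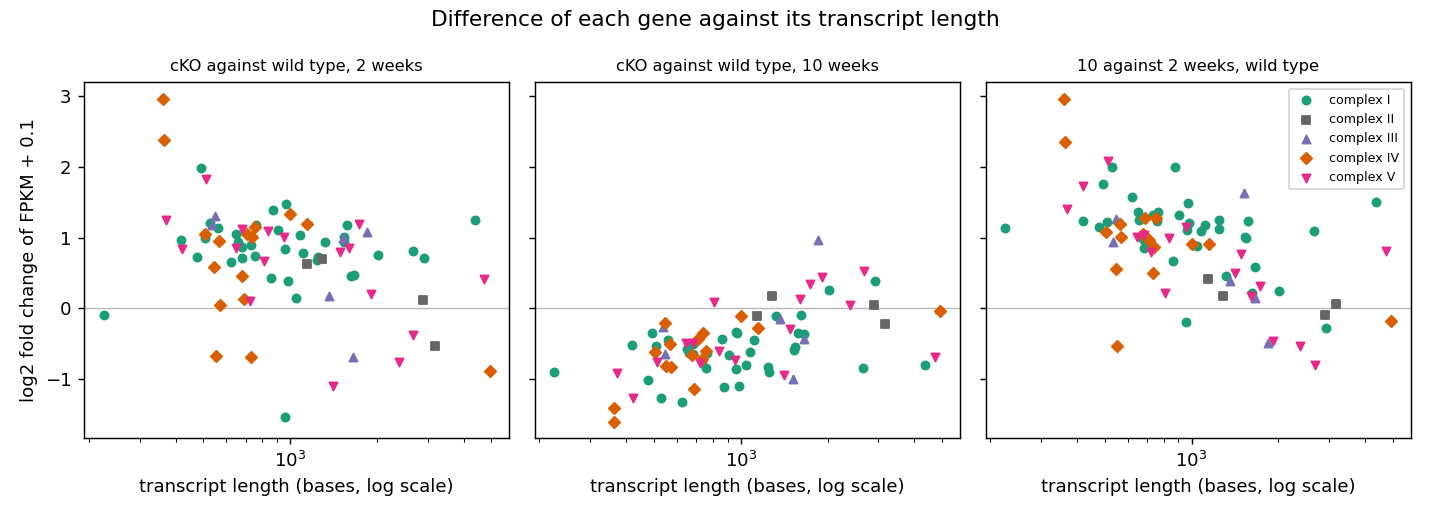
Log2 fold change of FPKM + 0.1 (vertical axis) of each tested gene against its transcript length in bases (horizontal axis, log scale), with symbols and colours for complexes I to V, in 3 comparisons as labelled. Short transcripts lie higher than long ones at 2 weeks and in wild type with age, and lower at 10 weeks, and *Cox8b* and *Cox7a1*, at 362 and 364 bases, lie farthest from 0 of the complex IV genes.

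Complex I carries the NADH-binding and iron-sulfur core subunits and a large set of accessory subunits. By role, the 7 core subunits had a median log2(FC) of 0.48 at 2 weeks with 0 DEGs, and 28 accessory subunits had 0.94 with 7 up-regulated DEGs. The medians at 10 weeks were -0.54 for the core, with *Ndufs7* a DEG, and -0.64 for the accessory subunits, with *Ndufa5* and *Ndufb7* DEGs. The counts of core and accessory subunits were not tested against each other.

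Of the core, *Ndufs1*, the largest iron-sulfur subunit, was 28.2, 28.7, 31.3 and 28.3 FPKM in wild type and 66.5, 37.3, 44.2 and 47.5 in *Socs3* cKO at 2 weeks, without overlap, with a log2(FC) of 0.71 (SE 0.18, limma adjusted p = 0.0149); at 10 weeks its groups overlapped and the log2(FC) was 0.39 (SE 0.19, limma adjusted p = 0.136). *Ndufv1*, which binds NADH, had a log2(FC) of 0.48 (SE 0.12, limma adjusted p = 0.0161) at 2 weeks, and *Ndufv2*, its partner in the NADH module, had 0.94 (SE 0.21, limma adjusted p = 0.00994), just under the fold that makes a DEG. The difference of *Ndufv2* was 0.01 (limma adjusted p = 0.964) without the length and GC trend, where that of *Ndufv1* was 1.04, and *Ndufv1* did not pass after quantile normalization (limma adjusted p = 0.0516). Neither overlapped between genotypes at 2 weeks, and both overlapped at 10 weeks. *Ndufs7*, an iron-sulfur subunit near the quinone site, was 166, 95.4 and 186 FPKM in wild type and 71.6, 65.4, 54.8 and 77.2 in libraries labelled *Socs3* cKO at 10 weeks, with a log2(FC) of -1.10 (SE 0.24, limma adjusted p = 0.00764), whereas at 2 weeks it overlapped (0.39, SE 0.15). Without the trend it was -0.68 (limma adjusted p = 0.0124) at 10 weeks and 0.88 (limma adjusted p = 0.00587) at 2 weeks. *Ndufs3*, another core subunit, was lower at 10 weeks (-0.79, limma adjusted p = 0.00694) and *Ndufs8* had -0.86 with overlapping groups (limma adjusted p = 0.0187), or -0.50 (limma adjusted p = 0.0369) without the trend.

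Among the accessory subunits the largest differences at 2 weeks were those of *Ndufb4* and *Ndufa5*. *Ndufb4*, of the membrane arm, was 40.7, 38.3, 45.9 and 37.4 FPKM in wild type and 170.2, 64.9, 117 and 125 in *Socs3* cKO at 2 weeks, with a log2(FC) of 1.48 (SE 0.27, limma adjusted p = 0.00441). *Ndufa5*, of the matrix arm, was 39.8, 52.0, 50.2 and 52.1 FPKM in wild type against 211, 73.2, 133 and 123, with a log2(FC) of 1.38 (SE 0.29, limma adjusted p = 0.00777). Neither gene overlapped between genotypes at this age. At 10 weeks *Ndufa5* was 222, 165 and 194 FPKM in wild type and 84.4, 77.6, 73.3 and 129.6 in libraries labelled *Socs3* cKO, with a log2(FC) of -1.11 (SE 0.23, limma adjusted p = 0.00537), and *Ndufb4* overlapped (-0.35, SE 0.26). *Ndufb7*, an accessory subunit of the membrane arm, had the lowest log2(FC) of the complex at 10 weeks, -1.32 (SE 0.28, limma adjusted p = 0.00687), from 298, 161 and 329 FPKM in wild type to 91.1, 86.8, 88.8 and 145. Without the length and GC trend *Ndufa5* was at 0.83 at 2 weeks and *Ndufb7* at -0.82 at 10 weeks, both past the test and below the fold of a DEG. *Ndufa2*, of the matrix arm, showed the largest rise with age in wild type within the complex, with 85.5 to 105 FPKM at 2 weeks and 227 to 545 at 10 weeks, a log2(FC) of 2.00 (SE 0.33, limma adjusted p = 0.000335).

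*Ndufa4* had the largest log2(FC) of the *Nduf* genes at 2 weeks. It was 223, 205, 234 and 226 FPKM in wild type and had a mean of 921 (SD 339, n = 4) in *Socs3* cKO, the lowest library being at 550, with a log2(FC) of 1.98 (SE 0.25, limma adjusted p = 0.00092), and it rose with age in wild type to 1013, 601 and 703 FPKM. The difference at 2 weeks was 0.77 (limma adjusted p = 0.00328) without the length and GC trend, where *Ndufa11* had the largest at 1.94 (limma adjusted p = 0.014). The length used for *Ndufa11* was 2661 bases, that of its longest annotated transcript. At 10 weeks the mice labelled *Socs3* cKO had 529, 522, 559.7 and 788 FPKM of *Ndufa4*, which overlapped wild type (-0.35, SE 0.26). Its paralogue *Ndufa4l2*, a gene induced by hypoxia, was 56.2, 63.4, 57.6 and 59.3 FPKM in wild type and 8.14, 27.2, 29.5 and 25.8 in *Socs3* cKO at 2 weeks, the opposite order, with a log2(FC) of -1.54 (SE 0.38, limma adjusted p = 0.0139). As a share of the FPKM of both genes at 2 weeks, *Ndufa4l2* was 19.75% to 23.6% in wild type and 0.591% to 4.71% in *Socs3* cKO. The groups overlapped in the older mice, at 4.22% to 8.29% and 5.31% to 7.08%. The log2 ratio of *Ndufa4l2* to *Ndufa4* differed by -3.52 at 2 weeks (exact permutation test, two-sided p = 0.0286) and by 0.01 at 10 weeks (p = 1, exact), and after removal of the length and GC trend the first was -1.87.

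Complex II oxidizes succinate and is also an enzyme of the TCA cycle. None of its 4 genes was a DEG in any comparison; by limma at an unadjusted p below 0.05, 2 were higher at 2 weeks and 0 differed at 10 weeks. *Sdha*, the flavoprotein, was 53.8, 55.5, 56.6 and 54.8 FPKM in wild type and 50.6, 70.3, 52.2 and 68.7 in *Socs3* cKO at 2 weeks, with overlapping groups and a log2(FC) of 0.11 (SE 0.15, limma adjusted p = 0.521). *Sdhd*, a membrane anchor, was higher at 2 weeks, 108, 52.6, 76.5 and 78.1 against 45.8, 50.1, 51.3 and 41.0 FPKM, a log2(FC) of 0.70 (SE 0.21, limma adjusted p = 0.0274). Without the length and GC trend *Sdhd* was at 0.21 (limma adjusted p = 0.205) and *Sdha* at 0.29 (limma adjusted p = 0.0383). *Sdhb*, the iron-sulfur subunit, had 0.63 (SE 0.21, limma adjusted p = 0.0376) with overlapping groups and did not pass after quantile normalization (limma adjusted p = 0.0857), and *Sdhc*, the other anchor, had -0.54 (SE 0.42, limma adjusted p = 0.298). The wide error of *Sdhc* went with 1 library, *Sdhc* being at 18.3, 69.8, 62.8 and 75.2 FPKM in *Socs3* cKO and at 64.4 to 76.5 in wild type. That library, *Socs3* cKO replicate 1, also held the lowest values of *Uqcrc1*, *Atp5a1* and *Atp5d* of all 15 libraries, and had a rho of -0.63 between the deviations of other genes and GC content, where the other *Socs3* cKO libraries of 2 weeks had -0.25 to -0.18. At 10 weeks the log2(FC) of the 4 genes was between -0.22 and 0.17 and none passed the test. With the trend removed *Sdhc* was lower at that age (-0.73, limma adjusted p = 0.00716), as was *Sdha* (-0.43, limma adjusted p = 0.0196), and the interaction of *Sdha* was -0.72 (limma adjusted p = 0.00111), where it had been -0.07.

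Complex III is built around the core proteins and the Rieske iron-sulfur protein, with small accessory subunits. At 2 weeks the 3 accessory subunits *Uqcrb*, *Uqcrh* and *Uqcrq* were higher at an adjusted p below 0.05, with *Uqcrh*, the hinge protein, a DEG. Without the length and GC trend *Uqcrb* was at -0.27 (limma adjusted p = 0.2), the opposite direction, and *Uqcrh* and *Uqcrq* passed at 0.58 and 0.76. *Uqcrh* was 232, 234, 259.9 and 232 FPKM in wild type and 1025, 367, 649 and 494 in *Socs3* cKO, with a log2(FC) of 1.30 (SE 0.29, limma adjusted p = 0.0094). The core protein *Uqcrc2* was also a DEG and the only gene of the 80 higher at 10 weeks at an adjusted p below 0.05. It was 67.4, 66.5, 74.6 and 63.5 FPKM in wild type and 214, 97.3, 147 and 138 in *Socs3* cKO at 2 weeks, a log2(FC) of 1.08 (SE 0.22, limma adjusted p = 0.00729), and 46.6, 63.9 and 37.8 against 83.3, 86.5, 87.6 and 125 at 10 weeks, a log2(FC) of 0.96 (SE 0.22, limma adjusted p = 0.00925). Without the length and GC trend it was at 0.47 and 0.68 (limma adjusted p = 0.0154 and 0.0104). The groups did not overlap at either age, and its interaction was -0.12 (SE 0.33, limma adjusted p = 0.787). The other core protein, *Uqcrc1*, was 25.4, 99.2, 83.7 and 116 FPKM in *Socs3* cKO and 107 to 123 in wild type at 2 weeks (-0.69, SE 0.43, limma adjusted p = 0.204). *Uqcrfs1*, the Rieske protein, had 0.17 (SE 0.22) at 2 weeks and -0.16 (SE 0.15) at 10 weeks, with overlap at both. *Uqcrq*, a small accessory subunit, had the lowest log2(FC) of the complex at 10 weeks, -1.001 (SE 0.31, limma adjusted p = 0.0288), with overlapping groups.

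Complex IV holds the muscle-type isoforms *Cox7a1* and *Cox8b*, which showed the largest differences of the 80 genes in all 4 comparisons. *Cox8b* was 14.7, 14.2, 11.8 and 10.8 FPKM in wild type and 147, 56.5, 125 and 96.9 in *Socs3* cKO at 2 weeks, and 88.3, 77.7 and 148 in wild type and 43.4, 27.3, 23.5 and 42.0 in libraries labelled *Socs3* cKO at 10 weeks. *Cox7a1* was 10.6, 17.3, 17.0 and 11.02 FPKM in wild type against 115, 45.8, 80.7 and 61.0 at 2 weeks, and 52.0, 69.8 and 93.5 against 33.2, 26.8, 19.3 and 27.1 at 10 weeks. Neither gene overlapped between genotypes at either age: both were high in *Socs3* cKO at 2 weeks and in wild type at 10 weeks, and low in the other groups. For *Cox8b* the log2(FC) was 2.96 (SE 0.29, limma adjusted p = 0.000246) at 2 weeks and -1.61 (SE 0.29, limma adjusted p = 0.00306) at 10 weeks. For *Cox7a1* it was 2.38 (SE 0.30, limma adjusted p = 0.000884) at 2 weeks and -1.41 (SE 0.24, limma adjusted p = 0.00258) at 10 weeks. The interaction was -4.57 (SE 0.44, limma adjusted p = 1.28e-05) for *Cox8b* and -3.79 (SE 0.42, limma adjusted p = 3.33e-05) for *Cox7a1*. After removal of the length and GC trend, *Cox8b* was a DEG in all 4 comparisons and *Cox7a1* in all but that of 10 weeks, where its log2(FC) was -1.13 (limma adjusted p = 0.022). Under that setting *Ndufb2*, of complex I, had a lower value than both at 10 weeks (-1.51, limma adjusted p = 0.014) and came before *Cox7a1* in wild type with age (2.099). Both values of *Ndufb2* rest on a length of 4371 bases, that of its longest annotated transcript, where the median of complex I was 960.

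Each of these isoforms takes the place of a subunit found in most tissues, *Cox8a* or *Cox7a2*, in the assembled enzyme. In wild type at 2 weeks *Cox8b* was 4.31% to 5.60% of the FPKM of *Cox8b* and *Cox8a* together, and in *Socs3* cKO it was 18.5% to 24.7%. At 10 weeks it was 18.1% to 26.8% in wild type and 7.34% to 12.1% in libraries labelled *Socs3* cKO. *Cox7a1* was 10.1% to 15.7% and 23.1% to 27.1% of the FPKM of *Cox7a1* and *Cox7a2* at 2 weeks. For this pair the groups overlapped at the older age, at 16.4% to 28.9% and 11.2% to 19.1%. The log2 ratio of *Cox8b* to *Cox8a* differed by 2.38 at 2 weeks (exact permutation test, two-sided p = 0.0286, the smallest that 4 against 4 mice allows) and by -1.41 at 10 weeks (p = 0.0571, exact, the smallest that 3 against 4 allows). For *Cox7a1* over *Cox7a2* the differences were 1.24 (exact p = 0.0286) and -0.81 (exact p = 0.114). Adjusted by Benjamini-Hochberg over the 14 tests of isoform pairs, the smallest p in this exact permutation family was 0.0667. With so few mice, even pairs without any overlap could not have passed 0.05 in this family. The adjusted values therefore decide nothing for any pair.

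The summed muscle markers moved with these isoforms in the genotype comparisons and with age in the mice labelled *Socs3* cKO, and less clearly with age in wild type. *Cox6a2*, the muscle isoform of another complex IV subunit and a marker here, was 9.32, 17.5, 16.1 and 10.9 FPKM in wild type and 97.3, 39.5, 97.5 and 65.2 in *Socs3* cKO of 2 weeks. In the older mice it was 55.9, 74.3 and 106.5 FPKM in wild type and 29.6, 21.4, 21.8 and 29.4 in libraries labelled *Socs3* cKO. Of the 12 muscle markers, 9 were up-regulated DEGs at 2 weeks, when their summed FPKM was 804 to 1208 in wild type against 2066 to 3882 in *Socs3* cKO. In the older mice 3 were down-regulated, and the sum was 1166 to 2015 against 523 to 931. All 12 were lower with age in the mice labelled *Socs3* cKO at an adjusted p below 0.05, 9 of them DEGs. In wild type with age the sums overlapped, and single markers went both ways. *Tnni2* was 83.1 to 127.7 FPKM at 2 weeks and 360.8 to 617.4 at 10 weeks. *Actn3* was 4.84 to 6.56 FPKM at 2 weeks and 0.35 to 1.28 at 10 weeks, and *Myh4* was 21.0 to 28.8 and 3.20 to 11.2. No muscle marker was at 0 in all mice of a group. *Acta1*, the actin of skeletal muscle, did not follow *Cox6a2* in every library: it was 117 FPKM in *Socs3* cKO replicate 1 of 2 weeks, below all 4 wild type mice of that age (223 to 348), although *Ckm*, muscle creatine kinase, was 361 there and 61.7 to 101 in wild type. Of the brown fat markers, *Cidea* was up-regulated at 2 weeks, with a log2(FC) of 1.63 (SE 0.14, limma adjusted p = 0.000125), from 41.7 to 47.8 FPKM in wild type to 113 to 158 in *Socs3* cKO, whereas *Ucp1*, which defines brown fat, was at most 0.21 FPKM in any library. The part of the muscle and fat content of the ear in the differences of the other genes was not tested.

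**Figure D5:**
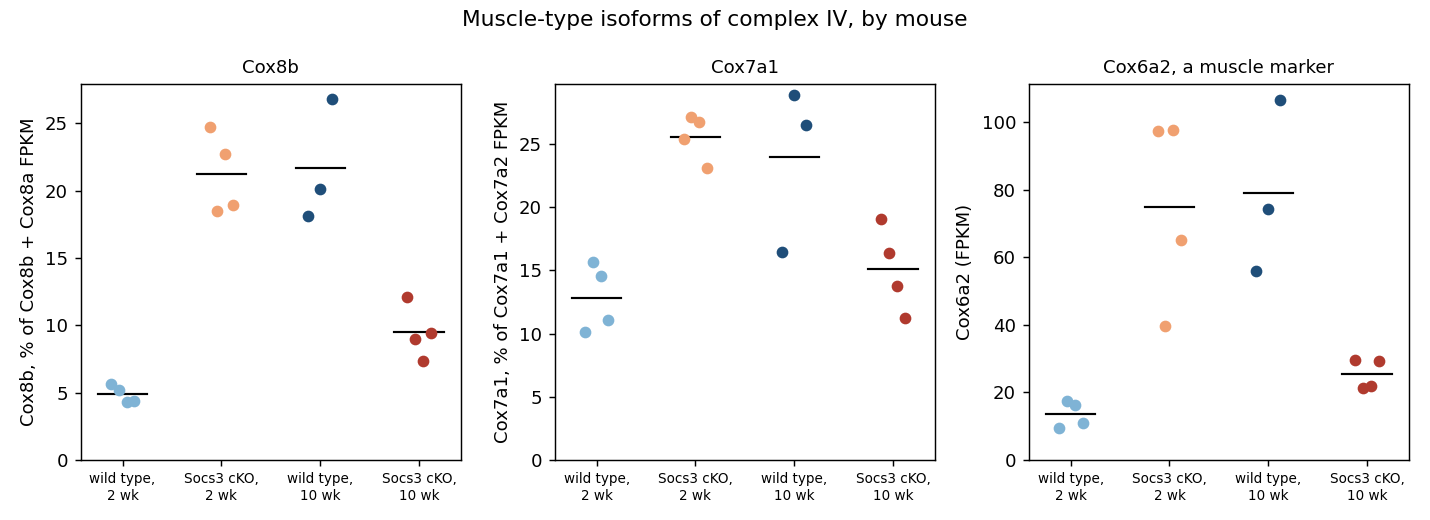
Share of *Cox8b* in the FPKM of *Cox8b* and *Cox8a* (left, %), share of *Cox7a1* in that of *Cox7a1* and *Cox7a2* (middle, %) and FPKM of the muscle marker *Cox6a2* (right), with 1 point per mouse, a bar at the group mean and groups as labelled. All 3 are low in wild type at 2 weeks (*Cox8b* at 4.31% to 5.60%), high in *Socs3* cKO at 2 weeks (18.5% to 24.7%) and in wild type at 10 weeks, and low to intermediate in libraries labelled *Socs3* cKO at 10 weeks.

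The start regions of these genes are shown because the isoforms of a pair, which stand in for each other in the enzyme, differ in base composition there as well as in expression. Promoter sequences from 250 bases before to 50 bases after the start were taken from RefSeq (build GRCm38.p6, whereas the expression values and gene positions are of mm9), where 67 of the 82 genes matched by symbol. Motifs were searched on both strands and matches are in capitals. *Cox7a1* lies at chr7:30969190-30971047 and *Cox8b* at chr7:148084842-148086345 of mm9.
Cox7a1, chr7:30183921-30184220, + strand: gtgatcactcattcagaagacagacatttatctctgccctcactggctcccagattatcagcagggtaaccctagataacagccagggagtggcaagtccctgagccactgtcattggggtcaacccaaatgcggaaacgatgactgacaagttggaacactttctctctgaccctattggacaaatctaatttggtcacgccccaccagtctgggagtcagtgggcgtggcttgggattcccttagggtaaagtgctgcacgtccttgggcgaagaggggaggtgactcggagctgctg
Cox7a2, chr9:79759804-79760103, - strand: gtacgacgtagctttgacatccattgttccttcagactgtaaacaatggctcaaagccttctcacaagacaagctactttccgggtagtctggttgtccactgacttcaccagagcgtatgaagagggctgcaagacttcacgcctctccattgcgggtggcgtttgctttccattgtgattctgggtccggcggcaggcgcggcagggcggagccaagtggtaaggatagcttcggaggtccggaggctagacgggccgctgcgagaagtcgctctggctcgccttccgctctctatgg
Cox8b, chr7:140900397-140900696, - strand: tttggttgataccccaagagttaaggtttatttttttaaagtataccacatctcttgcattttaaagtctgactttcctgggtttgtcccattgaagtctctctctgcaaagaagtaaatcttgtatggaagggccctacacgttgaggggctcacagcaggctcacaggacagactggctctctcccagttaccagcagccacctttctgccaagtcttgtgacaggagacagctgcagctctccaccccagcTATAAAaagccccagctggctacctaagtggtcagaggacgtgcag
Cox8a, chr19:7217567-7217866, - strand: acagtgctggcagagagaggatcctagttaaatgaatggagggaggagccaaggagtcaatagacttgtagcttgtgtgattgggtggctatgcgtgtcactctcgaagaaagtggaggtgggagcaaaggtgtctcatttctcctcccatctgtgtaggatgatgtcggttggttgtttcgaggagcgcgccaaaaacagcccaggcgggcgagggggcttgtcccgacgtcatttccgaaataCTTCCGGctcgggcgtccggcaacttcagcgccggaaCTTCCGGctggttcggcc
The capitals mark TATAAA, on the strand shown, in *Cox8b* and the core of ETS factors, CCGGAAG, on the opposite strand in *Cox8a*, where it stands at 2 places. Counted from the annotated start, TATAAA begins at position 5, after the start, and the capitals of *Cox8a* begin at positions -5 and 33. *Cox7a1* and *Cox7a2* hold none of the 5 motifs searched. The promoters hold 7 CpG dinucleotides in *Cox7a1*, 20 in *Cox7a2*, 2 in *Cox8b* and 19 in *Cox8a*, where the median was 19 over the 67 matched genes and 8 over all 27025 genes with a promoter.

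A gene was counted once for a motif if any of its promoters held it, so genes with more starts had more chances of a match. Over the 67 matched genes, CCGGAAG, to which GABP binds, was in 22.4%, where 9.93% of all 27025 genes with a promoter held it. The palindromic site of NRF1 was in 7.46% and in 1.07% of all, and AAGATGGC, the site of YY1, was in 16.4% and in 3.19% of all. TCAAGGTCA, the site of estrogen-related receptors, was in 2.99% and in 0.466% of all, and TATAAA was in 10.4% and in 15.7% of all. CCGGAAG and AAGATGGC can share the letters AAG, so a gene may be counted for both, and a match describes the sequence only.

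Of the subunits of complex IV used in most tissues, 1 of 10 was a DEG at 2 weeks and 10 of 10 were higher with age in wild type at an adjusted p below 0.05, where 7.24% and 13.1% of all genes were. With the length and GC trend removed none was a DEG at 2 weeks and 6 of 10 were higher with age, while *Cox6c*, *Cox7b* and *Cox8a* did not pass (0.18, 0.10 and 0.32) and *Cox7c* had a negative log2(FC) (-0.12, limma adjusted p = 0.636). The DEG was *Cox7b*, at 66.8, 64.2, 71.9 and 68.0 FPKM in wild type and 278, 103, 175 and 173 in *Socs3* cKO, with a log2(FC) of 1.34 (SE 0.27, limma adjusted p = 0.00647). Without the trend this difference was 0.07 (limma adjusted p = 0.661). *Cox4i1*, the largest nuclear subunit, had 0.45 (SE 0.14, limma adjusted p = 0.0274) at 2 weeks and -0.66 (SE 0.21, limma adjusted p = 0.0334) at 10 weeks, without overlap at either age. Its value at 10 weeks was -0.27 (limma adjusted p = 0.165) without the trend and its value at 2 weeks -0.07 after quantile normalization. *Cox5a* passed the test at the older age and not at the younger: it was 100.3 to 119 FPKM in wild type against 103 to 132 in *Socs3* cKO at 2 weeks (0.13, SE 0.13). At 10 weeks it was 325, 200.2 and 287 FPKM against 109, 132, 134 and 108, a log2(FC) of -1.14 (SE 0.21, limma adjusted p = 0.0033). Its interaction was -1.27 (limma adjusted p = 0.00121). Without the trend it was -0.50 and did not pass (limma adjusted p = 0.131). *Cox5b*, *Cox6b1* and *Cox7a2* had a log2(FC) of 0.96, 1.05 and 1.14 at 2 weeks, all at a limma adjusted p between 0.0111 and 0.0161. Without the trend they were at 0.94, 0.56 and 0.35 and passed as well. *Cox6a1* and *Cox8a* had 0.04 (SE 0.23) and 0.58 (SE 0.20), with overlap, and a limma adjusted p of 0.888 and 0.0408. *Cox8a* did not pass after quantile normalization (limma adjusted p = 0.641).

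Other isoforms of complex IV were lower or had a negative log2(FC) at 2 weeks. *Cox4i2*, a lung isoform responsive to oxygen, was 8.31, 9.10, 8.75 and 8.89 FPKM in wild type and 3.59, 4.39, 8.31 and 6.45 in *Socs3* cKO at 2 weeks, where the groups overlapped (-0.69, SE 0.26, limma adjusted p = 0.0524), and as a share of *Cox4i2* and *Cox4i1* it was 2.68% to 3.09% and 1.03% to 1.84%, a difference of -1.14 in the log2 ratio at 2 weeks (exact permutation p = 0.0286) and of -0.06 at 10 weeks (exact p = 0.857). *Cox6b2*, a testis isoform, was 8.63, 11.5, 12.6 and 13.3 FPKM in wild type against 7.55, 7.16, 6.79 and 6.80 at 2 weeks, and 7.66, 8.57 and 7.23 against 5.16, 4.08, 3.85 and 4.53 at 10 weeks. It was lower in *Socs3* cKO at both ages without overlap, with a log2(FC) of -0.68 (SE 0.17, limma adjusted p = 0.0134) and -0.82 (SE 0.19, limma adjusted p = 0.00933), and its interaction was -0.14 (SE 0.24). The call at 2 weeks was lost after median-of-ratios scaling and quantile normalization (limma adjusted p = 0.0669 and 0.194), and that at 10 weeks without the length and GC trend (-0.47, limma adjusted p = 0.115). Its log2 ratio to *Cox6b1* differed by -1.72 at 2 weeks (exact permutation p = 0.0286) and by -0.20 at 10 weeks (exact p = 0.629). The supercomplex factor *Cox7a2l* was an up-regulated DEG at 2 weeks (log2(FC) 1.19, SE 0.21, limma adjusted p = 0.00364) and overlapped at 10 weeks (-0.28, SE 0.21). Without the trend the first value was 0.70 (limma adjusted p = 0.00246), below the fold of a DEG. *Cox4nb*, which is no subunit, had -0.89 (SE 0.35, limma adjusted p = 0.0611) at 2 weeks and -0.04 at 10 weeks, the latter being -0.73 (limma adjusted p = 0.0196) without the trend.

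Complex V has a catalytic head (F1), a stalk and a membrane sector. The 5 genes of the head did not share a direction, with a median log2(FC) of 0.20 at 2 weeks and 0.35 at 10 weeks, whereas the 7 of the stalk and membrane sector were all higher at 2 weeks at an adjusted p below 0.05, with a median of 1.09, and had a median of -0.60 at 10 weeks with 0 DEGs. All 7 passed at 2 weeks without the length and GC trend too, with a median of 0.72, and *Atp5l* was then at 0.96. *Atp5j*, of the stalk, did not pass after quantile normalization (limma adjusted p = 0.0713). *Atp5l*, subunit g of the membrane sector, was 120.2, 104, 129.5 and 97.4 FPKM in wild type and 667, 234, 429 and 383 in *Socs3* cKO at 2 weeks, with a log2(FC) of 1.83 (SE 0.29, limma adjusted p = 0.00249). At 10 weeks it was 590.3, 347 and 531 FPKM in wild type against 265, 254, 235 and 404, with a log2(FC) of -0.75 (SE 0.26, limma adjusted p = 0.0464) and overlapping groups. *Atp5c1*, the gamma subunit that turns within the head, was also a DEG at 2 weeks, at 138, 132, 148 and 135 FPKM in wild type against 489, 205, 331 and 303 (log2(FC) 1.197, SE 0.24, limma adjusted p = 0.00659).

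The alpha and beta subunits of the head had a positive log2(FC) at 10 weeks. *Atp5a1* was 241, 253, 261 and 247 FPKM in wild type and 85.2, 229, 263 and 265 in *Socs3* cKO at 2 weeks, where 1 library was far below the others (-0.38, SE 0.35), and 144, 185 and 113 against 196, 212, 216 and 214 at 10 weeks (log2(FC) 0.53, SE 0.20, limma adjusted p = 0.0546). *Atp5b* was 407 to 438 and 393 to 603 FPKM at 2 weeks. In the older mice it was 268 to 333 and 402 to 421 FPKM, with a log2(FC) of 0.44 (SE 0.18, limma adjusted p = 0.0756). Both were thus higher in every library labelled *Socs3* cKO than in any wild type library at 10 weeks, without passing the test. *Atp5e*, the epsilon subunit, went the other way at that age: it was 893, 528 and 1062 FPKM in wild type and 319, 299, 279 and 452 in libraries labelled *Socs3* cKO, with a log2(FC) of -1.26 (SE 0.28, limma adjusted p = 0.00826), and 0.84 at 2 weeks (limma adjusted p = 0.0105). *Atp5d*, the delta subunit, was lower without overlap at both ages, at 20.3, 101, 109 and 101 against 146 to 152 FPKM at 2 weeks (-1.10, SE 0.50, limma adjusted p = 0.0957) and 98.9 to 123 against 155 to 244 at 10 weeks (log2(FC) -0.95, SE 0.20, limma adjusted p = 0.00684).

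The c ring, which turns as protons pass, is made of 1 protein encoded by *Atp5g1*, *Atp5g2* and *Atp5g3*. Their log2(FC) was 0.42, 0.85 and 0.10 at 2 weeks, of which *Atp5g2* passed an adjusted p below 0.05 (0.00769 by limma), and -0.68, -0.49 and -0.77 at 10 weeks, of which *Atp5g1* and *Atp5g3* passed (0.0209 and 0.0111 by limma). With the trend removed *Atp5g1* was higher and *Atp5g3* lower at 2 weeks (0.67 and -0.50, limma adjusted p = 0.0305 and 0.0303), and both were lower at 10 weeks. *Atp5g1* was 45.2% to 48.9% of the FPKM of *Atp5g1* and *Atp5g2* in wild type at 2 weeks and 35.7% to 44.6% in *Socs3* cKO, and 43.7% to 44.5% and 37.96% to 42.3% at 10 weeks. The log2 ratio differed by -0.43 (exact permutation p = 0.0286) and by -0.19 (exact permutation p = 0.0571). Neither could have passed 0.05 after adjustment over the 14 tests, given the number of mice. For *Atp5g1* over *Atp5g3* the differences were 0.32 (exact permutation p = 0.2) and 0.09 (exact p = 0.686), and after removal of the length and GC trend they were 1.18 and -0.81, so the c ring ratios depended on that setting. The length used for *Atp5g1*, that of its longest annotated transcript, was 4715 bases, against 647 for *Atp5g2* and 723 for *Atp5g3*. *Atp5s* and *Atp5sl*, which are no subunits, had 0.79 and -0.76 at 2 weeks, at a limma adjusted p of 0.016 and 0.0345, and -0.29 and 0.05 at 10 weeks. Without the length and GC trend the direction of *Atp5s* at 2 weeks was the opposite and passed the test (-0.48, limma adjusted p = 0.0377), and *Atp5sl* did not pass (-0.21, limma adjusted p = 0.395).

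Genes that work beside the complexes were counted in the same fits, where 7.24% of all genes were up-regulated and 7.19% down-regulated at 2 weeks, 12.5% and 2.43% at 10 weeks, and 6.18% and 19.4% in wild type with age. Of 43 assembly factors tested at 2 weeks, 4 (9.30%) were up-regulated DEGs and 0 down-regulated (median 0.21), and at an adjusted p below 0.05 it was 16 (37.2%) and 0, where 21.8% and 26.1% of all genes passed. Of 42 at 10 weeks 2 (4.76%) were down-regulated (median -0.24), and of 43 in wild type with age 6 (14.0%) were up-regulated and 2 (4.65%) down-regulated. *Cox16*, an assembly factor of complex IV, had the largest log2(FC) of the list, 1.35 (SE 0.27, limma adjusted p = 0.0063) at 2 weeks and 1.78 (SE 0.30, limma adjusted p = 0.00032) in wild type with age. Of 7 electron and nucleotide carriers, none was a DEG at 2 weeks and 5 (71.4%) were higher at an adjusted p below 0.05, among them *Cycs*, cytochrome c, at 14.7, 16.2, 17.3 and 17.0 FPKM in wild type and 54.6, 20.7, 34.2 and 37.6 in *Socs3* cKO (log2(FC) 1.09, SE 0.27, limma adjusted p = 0.0133). Of 10 regulators of mitochondrial genes, none was a DEG in a genotype comparison; at an adjusted p below 0.05, 3 were higher and 4 lower at 2 weeks (median -0.57) and 2 higher at 10 weeks (median 0.11), where 28.7% of all genes were higher, with *Gabpa* at 0.36 and 0.93 and *Yy1* at -0.80 and -0.17. In wild type with age 1 of the 10 was a down-regulated DEG, *Gabpb1* (-1.09). At an adjusted p below 0.05, 5 of the 10 (50.0%) were lower and 0 higher with age, where 37.6% and 13.1% of all genes passed. *Ppargc1a*, the coactivator of mitochondrial biogenesis, was at most 1.06 FPKM in any library and was not tested.

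Of 13 TCA cycle genes, 1 was an up-regulated DEG at 2 weeks, *Dld* (1.09), with a median of 0.50, where that of all genes was -0.21. At an adjusted p below 0.05, 8 (61.5%) were higher and 1 (7.69%) lower at that age, where 21.8% and 26.1% of all genes passed. None was a DEG at 10 weeks, with a median of 0.29, close to the 0.31 of all genes, where that of the oxidative phosphorylation genes was -0.56. With age in wild type, 2 of the 13 (15.4%) were down-regulated DEGs, among them *Dlst* (-1.17). At an adjusted p below 0.05, 5 (38.5%) were lower. Both shares were near the 19.4% and 37.6% of all genes. Ribosomal proteins also have shorter transcripts than most genes. Of 75 mitochondrial ribosomal proteins, with a median transcript of 1213 bases, 3 (4%) were up-regulated and 0 down-regulated at 2 weeks (median 0.55), a share below that of all genes. At 10 weeks 2 (2.67%) were down-regulated (median -0.44), close to the share of all genes, and 15 (20%) were up-regulated in wild type with age (median 0.57). At an adjusted p below 0.05, 39 of the 75 (52.0%) were higher and 5 (6.67%) lower at 2 weeks, where 21.8% and 26.1% of all genes passed. At 10 weeks 27 (36.0%) passed as lower, where 8.96% of all genes did. In wild type with age 44 (58.7%) passed as higher and 2 (2.67%) as lower, where 13.1% and 37.6% of all genes did. Of 80 cytosolic ribosomal proteins tested, which form no part of mitochondria and have a median transcript of 861 bases over the 81 listed, 47 (58.8%) were up-regulated at 2 weeks (median 1.24), 1 (1.25%) was down-regulated at 10 weeks (median -0.44) and 62 (77.5%) were up-regulated in wild type with age (median 1.30). At an adjusted p below 0.05, 78 of these (97.5%) were higher at 2 weeks and 75 (93.8%) in wild type with age. At 10 weeks 7 (8.75%) were lower, near the 8.96% of all genes, where 28 of 80 oxidative phosphorylation genes were. The differences of the oxidative phosphorylation genes at 2 weeks and with age were thus no larger in the median than those of the cytosolic ribosomal proteins. At 10 weeks the medians were -0.56 and -0.44. These comparisons between lists were not tested.

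Markers of other cell types of the ear gave these summed FPKM. At 2 weeks, in wild type and *Socs3* cKO, the 6 hair markers held 445 to 709 and 2.23 to 11.7, with 6 of 6 down-regulated DEGs. The 5 cartilage markers held 148 to 251.1 and 13.7 to 85.8, with 2 down-regulated. The 5 fibroblast markers held 8228 to 9862 and 3549 to 5171, with 2 down-regulated and 1 up-regulated, and the 7 adipocyte markers 33.6 to 36.4 and 41.5 to 236, with 2 up-regulated. The 5 keratinocyte markers (7612 to 8355 and 5744 to 11570) held 1 up-regulated DEG and the 5 T cell markers (17.4 to 25.5 and 30.1 to 49.4) held 2. The 4 endothelial (51.9 to 59.2 and 39.2 to 48.1), 4 macrophage (191 to 225 and 289 to 638), 3 neutrophil (1.84 to 3.05 and 1.42 to 4.17) and 5 cycling markers (65.6 to 68.9 and 39.2 to 88.4) held none in either direction by limma, with 2 macrophage markers higher and 1 endothelial marker lower at an adjusted p below 0.05. At 10 weeks the macrophage markers held 246 to 411 FPKM in wild type and 574 to 992 in libraries labelled *Socs3* cKO with 3 of 4 up-regulated, and the endothelial markers 10.4 to 14.5 and 27.9 to 38.8 with 3 of 4 up-regulated. The adipocyte markers held 60.55 to 83.9 and 91.9 to 268, and the other sums overlapped. In wild type with age the hair sum fell to 1.68 to 2.09 FPKM and the fibroblast sum to 3166 to 5257. Cartilage and endothelial sums were also lower without overlap. Adipocyte, macrophage, neutrophil and T cell sums were higher without overlap, and keratinocyte and cycling sums overlapped. The part of these cell types in the differences of the oxidative phosphorylation genes was not tested.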

How the data were processed

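RNA of mouse ear was sequenced by the authors as 15 libraries, with TruSeq v2 kits and single 50-base reads. Per the submitters' processing notes, reads were aligned with TopHat2 2.1.0 to mm9 and gene expression was estimated with Cufflinks. The deposited values are FPKM per gene that the authors calculated for each sample. Since FPKM keep no read number, the depth behind a value is unknown, no interval or floor is given, and the edgeR test of the study could not be run. Groups were taken from the sample labels, and the columns without a sample numbered 0.

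FPKM + 0.1 was log2 transformed, genes with 1 FPKM or more in 3 samples of a comparison were kept, and limma 3.58.1 (R 4.3.3, with a mean-variance trend) was fitted to all of them, with Benjamini-Hochberg adjustment over all genes tested. Each comparison was fitted on its own groups, and the interaction and the age comparisons on all 4 groups. DEGs had an adjusted p below 0.01 and |log2(FC)| of at least 1. Isoform ratios were compared by two-sided exact permutation tests. Each mouse was 1 replicate, and no pair of libraries shared more than 1 identical value above 0. Transcript length and GC content were known for 19443 genes (92.1%), including all 82 members. They were those of the longest protein-coding transcript annotated for each gene. Whether that transcript was the one expressed was not tested. Scripts were tested on simulated data. Other tools were Python 3.11.15, numpy 2.4.6, pandas 2.3.3, scipy 1.17.1 and matplotlib 3.10.9.

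Alternatives were other pseudocounts, filters, scalings, thresholds and fits, removal of the length and GC trend, and leaving out each mouse. The members, the marker and pathway lists and the tests were chosen with earlier results of these data known. The genes named were *Socs3*, up to 6 DEGs with the largest |log2(FC)| of each comparison, the highest and lowest member of each complex in each genotype comparison, core or catalytic subunits, isoform pairs, members that are no subunits, and up to 3 DEGs of each pathway list. Members named outside this rule, and *Cycs*, *Gabpa*, *Yy1*, *Ppargc1a* and *Cidea*, were chosen after their values were seen. Single values of some genes that the rule names are not reported here. The study's methods state more wild type mice, which are not analysed here.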

Additional observations from a re-analysis of the deposited data

Results flagged for a closer look

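In groups of 4 mice, a library was looked at again where its gap to the nearest of the others was large against the whole range of the group (Dixon's 95% critical value). Of 180 groups tested 26 passed, and chance flags about 1 in 20 groups. Of the 26, 17 were replicate 4 of the mice labelled *Socs3* cKO at 10 weeks. Of these, in FPKM, *Atp5c1* was at 300.4, *Atp5g2* at 222.3, *Cox5b* at 362, *Cox6b1* at 595.2, *Cox7a2l* at 235, *Ndufa2* at 246.3 and *Ndufa4* at 787.9. *Ndufb7* was at 144.8, *Ndufs8* at 68.38, *Ndufv1* at 74.23, *Ndufv2* at 85.54, *Sdhd* at 73.75 and *Uqcrc2* at 124.5. In the same library the mean log2 level was 6.935 for complex I and 7.457 for complex III, and the log2 ratio was -4.153 for *Ndufa4l2* to *Ndufa4* and -0.7082 for *Atp5g1* to *Atp5g2*. In *Socs3* cKO replicate 2 of 2 weeks the mean log2 level of complex V was 7.171, *Cox8a* was at 249.3 FPKM and *Ndufb7* at 86.88, and in replicate 1 *Atp5d* was at 20.3. In wild type replicate 3 of 2 weeks *Atp5s* was at 3.665 FPKM, *Ndufs1* at 31.32 and *Uqcrh* at 259.9, and in replicate 1 *Ndufa5* was at 39.78 and *Socs3* at 9.709.

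The genotype difference at 10 weeks minus that at 2 weeks passed the interaction test (limma, adjusted p below 0.01) for 27 of 47 genes named, all but *Socs3* (4.604 on the log2 scale) negative. In complex I it was -2.476 for *Ndufa2*, -2.33 for *Ndufa4*, -2.497 for *Ndufa5*, -1.831 for *Ndufb4*, -1.975 for *Ndufb7*, -0.9437 for *Ndufs3*, -1.49 for *Ndufs7*, -1.701 for *Ndufs8*, -0.8421 for *Ndufv1* and -1.484 for *Ndufv2*. In complex III it was -1.95 for *Uqcrh* and -1.989 for *Uqcrq*. In complex IV it was -1.113 for *Cox4i1*, -1.273 for *Cox5a*, -1.464 for *Cox5b*, -1.661 for *Cox6b1*, -3.791 for *Cox7a1*, -1.746 for *Cox7a2*, -1.474 for *Cox7a2l*, -1.441 for *Cox7b* and -4.568 for *Cox8b*. In complex V it was -2.106 for *Atp5e*, -1.099 for *Atp5g1*, -1.338 for *Atp5g2*, -0.867 for *Atp5g3* and -2.589 for *Atp5l*. With the length and GC trend removed, 4 of these did not pass 0.01: *Ndufv2* was at -0.74 (limma adjusted p = 0.0175), *Cox5a* at -0.50 (0.131), *Cox7b* at -0.17 (0.429) and *Atp5g3* at -0.08 (0.8).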

How the results depend on the processing

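Up-regulated DEGs at 2 weeks (16) numbered 9 with quantile normalization, 7 with the length and GC trend removed, 29 in a fit of all 4 groups and 58 at an adjusted p below 0.05 with no fold. Down-regulated DEGs (0) numbered 1 with a pseudocount of 1, either scaling, the trend removed or the fit of all groups, and 3 at an adjusted p below 0.05. At 10 weeks the 7 down-regulated DEGs numbered 4 with no filter, 13 with median-of-ratios scaling, 2 with the trend removed and 28 at an adjusted p below 0.05, where 1 was higher. In wild type with age 42 became 19 with the trend removed, and 3 were lower at an adjusted p below 0.05. In mice labelled *Socs3* cKO with age 4 were lower at that threshold. The interaction had 1 positive call with quantile normalization and 1 with the trend removed. The causes of these shifts were not tested.

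The mean difference of the 80 genes at 2 weeks (0.71) was 0.44 with quantile normalization and 0.46 with the trend removed, at 10 weeks (-0.51) -0.79 with median-of-ratios scaling, and in wild type with age (0.90) 1.29 with that scaling and 0.70 with the trend removed. With median-of-ratios scaling, complexes II, III and V differed by 0.42, 0.86 and 0.78 at 2 weeks, and II, III, IV and V by -0.31, -0.53, -0.93 and -0.65 at 10 weeks. With quantile normalization II, III, IV and V differed by 0.025, 0.33, 0.53 and 0.24 at 2 weeks and II by -0.18 at 10 weeks. With the trend removed III and IV differed by 0.20 and 0.40 at 2 weeks and II by -0.23 at 10 weeks. With the trend removed the log2 ratios at 2 weeks differed by 1.77 for *Cox7a1* to *Cox7a2*, 2.04 for *Cox8b* to *Cox8a*, -1.87 for *Ndufa4l2* to *Ndufa4*, -0.076 for *Atp5g1* to *Atp5g2* and 1.18 for *Atp5g1* to *Atp5g3*, the last pairs being at -1.26 and -0.81 at 10 weeks.

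Leaving out 1 mouse at a time gave 3 to 44 up-regulated and 0 to 1 down-regulated at 2 weeks, 0 to 1 and 0 to 18 at 10 weeks, 19 to 47 up-regulated in wild type with age, 0 to 2 down-regulated in mice labelled *Socs3* cKO with age, and 23 to 61 negative and 0 to 1 positive interactions. The mean differences held their direction over all 80 genes and for complexes I, III, IV and V, at 0.64 to 0.86 and -0.64 to -0.42 over all 80 genes. Complex II held it at 2 weeks (0.15 to 0.29) and not at 10 weeks (-0.07 to 0.01). The ratio of *Ndufa4l2* to *Ndufa4* at 10 weeks ran from -0.31 to 0.21, that of *Cox4i2* to *Cox4i1* from -0.20 to 0.11, that of *Cox6b2* to *Cox6b1* from -0.36 to 0.11 and that of *Atp5g1* to *Atp5g3* from -0.03 to 0.17.

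Replicate numbers did not pair the mice: same-numbered deviations correlated at -0.04 to 0.14 at 2 weeks and at -0.21 to 0.07 at 10 weeks. With the replicate number as a block, 4 genes were up-regulated at 2 weeks, 10 down-regulated at 10 weeks, 47 up-regulated in wild type with age, 1 down-regulated in mice labelled *Socs3* cKO with age, and 54 interactions were negative. Depth is unknown, so precision rests on the spread between 3 or 4 mice, and group and library preparation cannot be told apart.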
